A study of Mus musculus with 6 samples.

Results

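The genes described here are 35 named genes of the defence against oxidative stress and of glutathione chemistry, taken from a list by symbol. They were chosen with earlier results of these data known. Of the 35 genes, 34 were found among the 24080 genes of the expression table by Ensembl identifier, and *Gpx7* was not analysed here. They were read in RNA from 2 related mouse endothelial cell types. VEC-null cells were derived from embryonic stem cells in which both copies of the VEC gene carry a null mutation, and VEC-positive cells are the same line after retroviral transfer of wild-type *VEC*. VEC is vascular endothelial cadherin, the adhesion protein of endothelial junctions, encoded by *Cdh5*. Each cell type was sequenced in 3 libraries from total RNA, with no further treatment in the labels. Because a line is set against its own reconstituted derivative, the p-values measure spread between libraries, and an effect of VEC cannot be told apart from any other difference between the lines.

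Superoxide and hydrogen peroxide are formed in every respiring cell. Superoxide dismutases convert superoxide to hydrogen peroxide, which catalase, peroxiredoxins and glutathione peroxidases then remove. Glutathione, a small thiol made from glutamate, cysteine and glycine, supplies electrons to the glutathione peroxidases and is joined to reactive molecules by glutathione transferases. Thioredoxin does the like for peroxiredoxins. Many genes of these systems are controlled by NRF2 (encoded by *Nfe2l2*), a transcription factor that KEAP1 holds for degradation until oxidants or electrophiles modify KEAP1. NRF2 then pairs with small MAF proteins at antioxidant response elements. In endothelium the same enzymes are known for limiting the loss of nitric oxide to superoxide.

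All directions are given by label, because *Cdh5* itself ran against the labels. Its normalized counts, reads of a gene divided by 1 size factor per library, were 1334, 1439 and 1689 in the VEC-null libraries and 794, 739 and 749.7 in the VEC-positive libraries (log2 fold change -0.96, standard error 0.098, adjusted p = 0.000182). *Cldn5*, the tight junction protein claudin-5, picked once its values were known, stood at 9.18, 5.51 and 4.43 against 429, 512 and 434 (log2 fold change 6.01, adjusted p = 2.1e-06). A count per gene does not show whether reads came from the null allele or the transferred cDNA. Recovered reads ranged from 6036155 to 14136376 per library. Reads from the mitochondrial genome took 9.62% to 14.9% of the VEC-null and 18.0% to 24.2% of the VEC-positive libraries. Of 14 endothelial markers, 9 were higher and *Cdh5* was lower in VEC-positive, and the list summed to 53790 to 56680 in VEC-null and 75550 to 77860 in VEC-positive. The 9 measured markers of mural cells and fibroblasts (of 12 listed) summed to 83.3 to 213 in VEC-null and 966 to 1066 in VEC-positive, where *Pdgfrb* and *Col3a1* were the 2 that passed. Their mean normalized counts in VEC-null were 1.10 and 0.2625, and in VEC-positive 105 and 739. Most of the rise in the sum lay in these 2 genes, and only 5 of the 9 were tested. Mean counts of *Acta2* (19.4 against 8.59), *Col1a2* (80.2 against 72.75), *Rgs5* and *Tagln* were lower in VEC-positive. Those of *Pdgfra*, *Col1a1* and *Dcn* were higher. The log2 fold change of *Col1a2* was 0.27, with overlapping groups. Of 10 blood cell markers 4 were measured and 3 tested, with 0 calls by limma, edgeR or DESeq2 and 0 at an unadjusted p under 0.05, and the 4 summed to 129 to 436 and 143 to 199. The measured pluripotency markers (4 of 8) summed to at most 13.7 in any library, and the epithelial markers (4 of 6) to at most 7.09, with *Epcam* at 0 reads in all VEC-null libraries. The part of these markers and of the mitochondrial share in the results was not tested. In bulk RNA, fewer cells of a type and less RNA per cell cannot be told apart.

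The control sequence by which NRF2 is known to act is short, and it can be read in the promoters of these genes. The core letters TGACNNNGC were searched on both strands of the RefSeq promoters of GRCm38.p6, each running from 250 bases before to 50 bases after a transcript start. Of the 35 listed genes, 29 had at least 1 promoter there, 37 promoters in all. *Hmox1*, *Gclc*, *Gsr*, *Prdx6*, *Sod3* and *Gsta4* had no entry. The core occurred in 7 of the 37 promoters (18.9%), against 4071 of 32851 (12.4%) of all mouse promoters of the same length. The 7 windows are shown because they are where the letters of the NRF2 element meet the measured genes. The core is in capitals, and each window is written on the strand that carries it.
Nfe2l2 (chr2:75704884-75704913, minus strand, centre of the core 236 bases before the start): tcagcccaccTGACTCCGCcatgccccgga
Gclm (chr3:122245412-122245441, minus strand, centre of the core 130 bases before the start): tcgtgagagtTGACGGTGCgcccgggagcg
Txnrd1 (chr10:82859103-82859132, minus strand, centre of the core 88 bases before the start): cgtgtcagaaTGACAAAGCaaaaatccagt
Srxn1 (chr2:152105541-152105570, minus strand, centre of the core 32 bases after the start): tgtctcactcTGACCTAGCtgcccactgcc
Prdx1 (chr4:116685455-116685484, minus strand, centre of the core 129 bases before the start): ctacgggggaTGACTCAGCgctttccctgg
Sod1 (chr16:90220695-90220724, minus strand, centre of the core 52 bases before the start): ggcctgagtcTGACCACGCccaccttggca
Mgst1 (chr6:138140460-138140489, minus strand, centre of the core 52 bases before the start): ccccgcctccTGACCGTGCcaagccccgcc

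A match describes letters and is neither a bound site nor a cause. Of the 7 genes that carry one, *Nfe2l2*, *Gclm*, *Txnrd1* and *Srxn1* were higher in VEC-positive, while *Prdx1*, *Sod1* and *Mgst1* did not pass the test. Of all 31 genes that passed the filter on low values, with or without a match, 15 were higher. *Gstm2*, with the largest fold change of these 31 genes, had no match in its window, and no match says only that the letters are not in these bases.

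**Figure D1:**
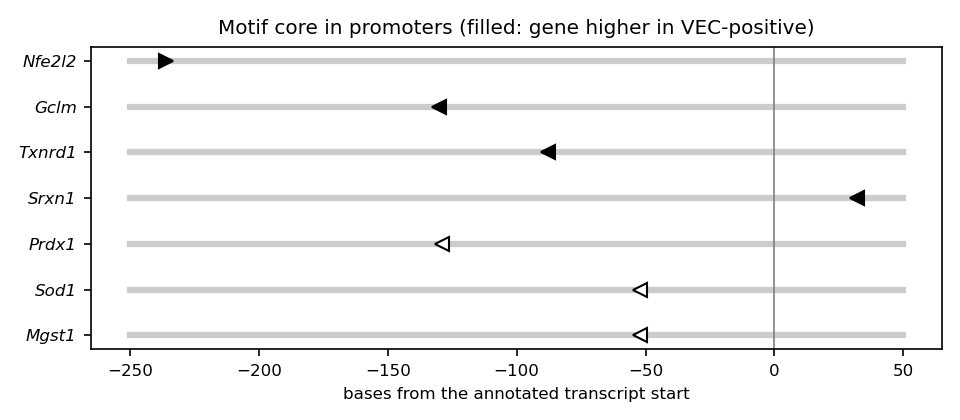
Position of the core TGACNNNGC in the promoters of the 7 genes that hold it, in bases from the annotated transcript start (x axis, start at 0). Grey bars span the searched window from 250 bases before to 50 bases after the start, each triangle is 1 match pointing right where it lies on the strand of the gene and left on the opposite strand, and filled triangles mark the 4 genes higher in VEC-positive. Matches lie between 236 bases before (*Nfe2l2*) and 32 bases after (*Srxn1*) the start. Of all 31 tested genes, with or without a match, 15 were higher.

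A second short sequence marks the selenoenzymes of the group. Glutathione peroxidases 1 and 4 and thioredoxin reductase 1 carry selenocysteine at their catalytic centre, which is encoded by a TGA codon inside the reading frame. The longest complete annotated coding sequence of each of the 35 listed genes was read (GENCODE M21, GRCm38). An in-frame TGA before the stop codon was found in these 3 genes alone. It is in capitals, with up to 4 codons on either side, all within 1 coding exon on the plus strand.
Txnrd1 (chr10:82896025-82896045): cagtctggctgcTGAggttaa
Gpx1 (chr9:108339439-108339465): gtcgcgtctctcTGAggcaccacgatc
Gpx4 (chr10:80054725-80054751): gtggcctcgcaaTGAggcaaaactgac

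In *Txnrd1* this codon is 612 of 613, next to the last, and in *Gpx1* and *Gpx4* it is codon 47 and codon 129. These positions belong to the longest coding sequence and can differ in shorter forms. *Gpx8*, a relative in the endoplasmic reticulum, had none. All 3 selenoenzyme genes were higher in VEC-positive, by 1.69-fold (*Gpx1*), 1.48-fold (*Gpx4*) and 1.23-fold (*Txnrd1*). Over all tested genes, 20.9% were higher. All 3 calls were lost with libraries scaled to equal totals (log2 fold changes 0.45, 0.26 and -0.013). A list of other selenoproteins and factors of their synthesis, described below, had 2 higher and 2 lower of 16 tested. Values and further limits of the 3 genes are given under their groups.

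Of the 34 genes, 31 reached 10 normalized counts in 3 or more libraries and were tested with limma on log2(normalized count + 1), with p-values adjusted over all 14032 genes tested. At an adjusted p of 0.05, 15 of the 31 were higher in VEC-positive, 2 were lower and 14 did not pass. Over all tested genes, 20.9% were higher and 16.4% lower. The median log2 fold change was 0.25 for the 31 genes and -0.012 for all tested genes. A change of at least 2-fold was found upward in 6 genes (*Gstm2*, *Nfe2l2*, *Gclc*, *Sod2*, *Gstm1*, *Gstp1*), where 6.88% of all tested genes rose that far, and downward in *Prdx4*, where 6.99% fell that far. The groups did not overlap in 20 of the 31 genes, against 50% of all tested genes. The split of calls depended on the scaling. With libraries scaled to equal totals, which moved the median of all tested genes to -0.32 and gave 1566 higher and 4960 lower calls among them, 10 of the 31 were higher and 8 lower. With equal totals outside the mitochondrial genome, which moved that median to -0.16, 12 were higher and 4 lower. Over all tested genes that scaling gave 2051 higher and 3166 lower calls. VEC-null 3 stood apart from the other VEC-null libraries here: it held the highest of the 3 VEC-null values in 26 of the 31 genes (83.9%), against 6869 of all 14032 tested genes. Without it, 18 of the 31 were higher and 2 lower. Calls over all tested genes rose too when it was left out, from 2927 higher and 2304 lower to 3800 and 3359.

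**Figure D2:**
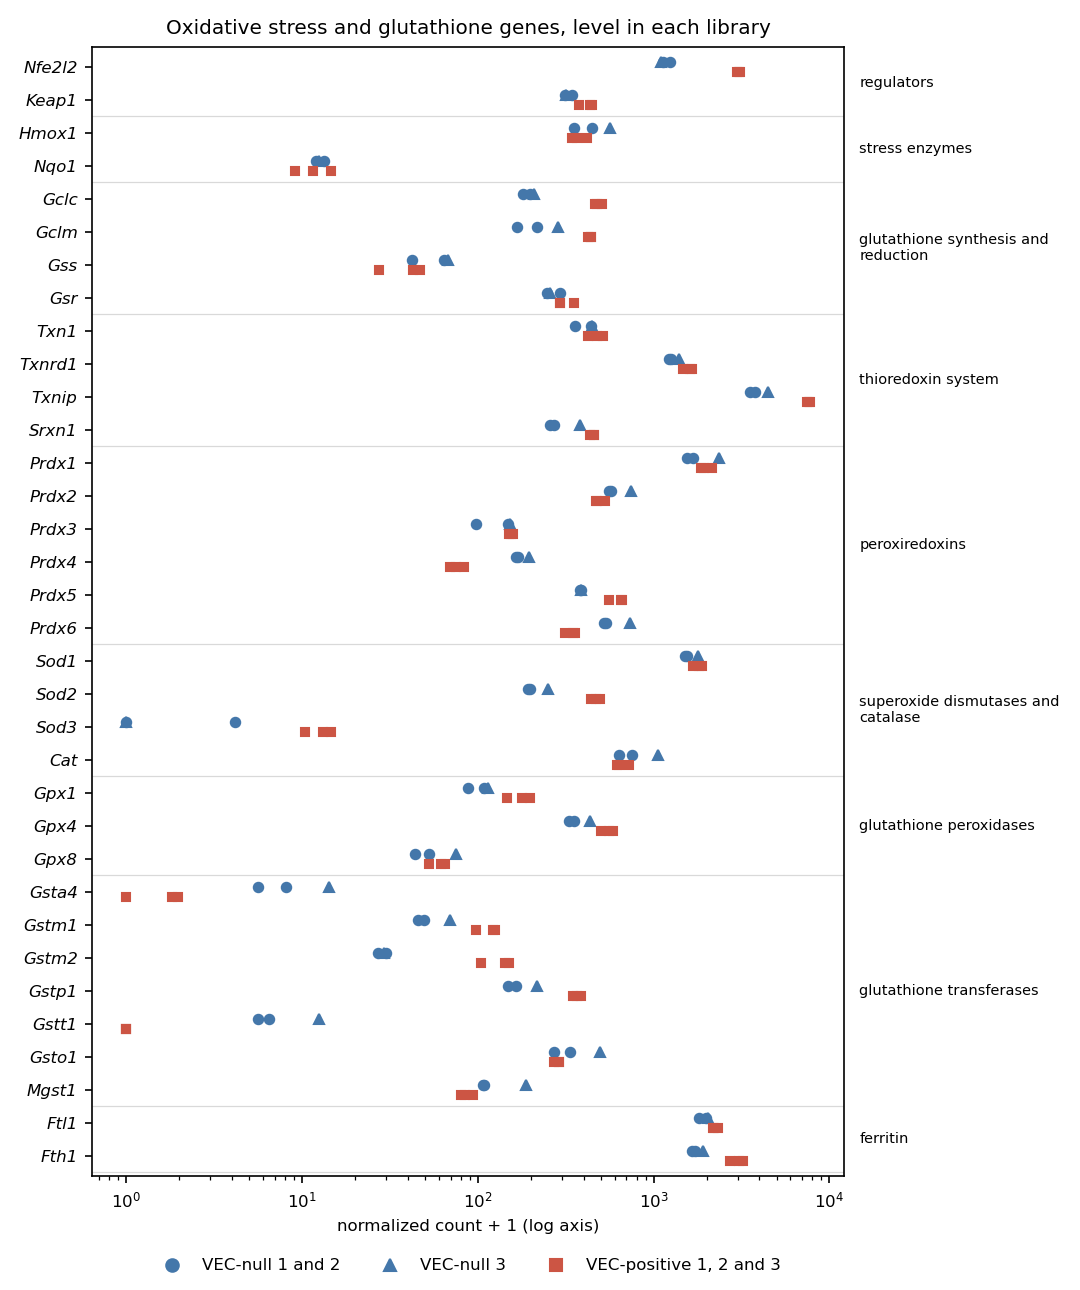
Normalized count plus 1 of each of the 34 genes in each library (x axis, log scale), grouped by role. Circles are VEC-null 1 and 2, triangles VEC-null 3 and squares VEC-positive 1, 2 and 3. *Nfe2l2*, *Gclc*, *Sod2*, *Gstm2* and *Txnip* show wide gaps with VEC-positive to the right, *Prdx4* and *Prdx6* the reverse, and VEC-null 3 is often the rightmost VEC-null point.

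The clearest difference among the regulators was in *Nfe2l2* (ENSMUSG00000015839, chr2:75675513-75704641, minus strand, GRCm38), which encodes NRF2. VEC-null 1, 2 and 3 held 1239, 1133 and 1106 normalized counts of it, against 2965, 3115 and 3043 for VEC-positive 1, 2 and 3, the order kept for all genes that follow. The lowest VEC-positive library was thus far above the highest VEC-null library, and the spread within either group was small (SD 70.6 and 75.2, n = 3 each). *Nfe2l2* rose 2.62-fold (log2 fold change 1.39, standard error 0.073, adjusted p = 6.2e-06). Its inhibitor *Keap1*, the adaptor that presents NRF2 to a ubiquitin ligase, had 311, 344 and 316 against 443, 434.5 and 374. The groups were close without overlap, and *Keap1* rose 1.29-fold (log2 fold change 0.36, standard error 0.10, adjusted p = 0.0233). That call was lost with equal totals (log2 fold change 0.053) and with equal totals outside the mitochondrial genome (log2 fold change 0.22). It was also lost without VEC-null 1, VEC-positive 1 or VEC-positive 2, and when replicate number was added to the model.

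The 2 enzymes widely used as readouts of NRF2 did not pass the test. *Hmox1*, heme oxygenase, had 350.4, 443 and 566 in VEC-null and 367, 419 and 342 in VEC-positive, overlapping groups with a log2 fold change of -0.25 (95% interval -0.64 to 0.15, adjusted p = 0.297). With equal totals its log2 fold change was -0.56 and passed as lower. *Nqo1*, a quinone reductase, was near the filter, at 12.2, 11.03 and 11.5 against 10.5, 13.6 and 8.07. This rests on 35 and 33 reads per group, and changes within its 95% interval of -0.91 to 0.66 on the log2 scale were not detectable at this depth.

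In glutathione synthesis the rate-limiting step was higher and the later step did not pass the test. *Gclc* (ENSMUSG00000032350, chr9:77754535-77794485, plus strand), the catalytic subunit of glutamate-cysteine ligase, had 196, 179 and 207.5 in VEC-null and 476, 506.5 and 461 in VEC-positive. *Gclm* (ENSMUSG00000028124, chr3:122245557-122270732, plus strand), its modifier subunit, had 167, 217 and 283 against 419.9, 438 and 437. Every VEC-positive library was above every VEC-null library for both subunits. *Gclc* rose 2.47-fold (log2 fold change 1.31, standard error 0.097, adjusted p = 4e-05) and *Gclm* rose 1.98-fold (log2 fold change 0.99, standard error 0.18, adjusted p = 0.00313), and both calls held with either form of equal totals. *Gss*, glutathione synthetase, which adds the glycine, had 41.3, 63.0 and 66.5 against 42.0, 26.3 and 46.0, with the groups overlapping (log2 fold change -0.58, interval -1.24 to 0.088, adjusted p = 0.156). With equal totals *Gss* had a log2 fold change of -0.88 and passed as lower. *Gss* has antisense neighbours, *Acss2* among them, that share 7.11% of the 50-base words of its transcript, and whether the counting used strand is not stated in the sources used. *Gsr*, the reductase that recycles oxidised glutathione, had 291, 247 and 255 against 290.4, 352 and 290.5. Its interval of -0.041 to 0.50 included 0 (adjusted p = 0.164), and its sign turned with equal totals (log2 fold change -0.08).

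In the thioredoxin system 3 of 4 genes were higher, and the inhibitor moved most. *Txnip*, thioredoxin-interacting protein, binds and inhibits thioredoxin and is also known as a brake on glucose uptake. It was the most abundant of all these genes per kilobase of exon in VEC-positive, with a mean of 2437 normalized counts per kilobase against 1254 in VEC-null. Its normalized counts were 3524, 3752 and 4470 against 7432, 7644 and 7761, a rise of 1.95-fold (log2 fold change 0.97, standard error 0.098, adjusted p = 0.000179). The antisense gene *Gm15441* covers 18.4% of the 50-base words of *Txnip* but had a mean of only 35.5 in VEC-null and 58.5 in VEC-positive (adjusted p = 0.188). *Srxn1*, sulfiredoxin, which repairs overoxidised peroxiredoxins, had 257, 269 and 379 against 455, 454 and 433 and rose 1.504-fold (log2 fold change 0.59, standard error 0.15, adjusted p = 0.0154). *Txnrd1*, the selenoenzyme that recharges thioredoxin, had 1221, 1249 and 1389 against 1617, 1653 and 1475 and rose 1.23-fold (log2 fold change 0.30, standard error 0.082, adjusted p = 0.0231). Within the thioredoxin system the calls of *Srxn1* and *Txnrd1* were less stable than that of *Txnip*. Both were lost with either form of equal totals and without VEC-positive 1, VEC-positive 2 or VEC-null 2. That of *Txnrd1* was also lost without VEC-null 1 and when replicate number was added to the model. With equal totals the log2 fold change of *Txnrd1* was -0.013. *Txn1*, thioredoxin itself, had 438, 354 and 444 against 422, 512 and 472, which overlap (log2 fold change 0.19, interval -0.087 to 0.47, adjusted p = 0.253).

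The 6 peroxiredoxins differed among themselves, with 1 higher, 2 lower and 3 not passing. *Prdx4* (ENSMUSG00000025289, chrX:155323918-155340754, minus strand), the peroxiredoxin of the secretory pathway, had 168, 164 and 194 in VEC-null and 68.8, 81.8 and 74.2 in VEC-positive. All 3 VEC-positive libraries were thus well under all 3 VEC-null libraries, 2.32-fold lower (log2 fold change -1.22, standard error 0.14, adjusted p = 0.000335). *Prdx6*, which uses glutathione in place of thioredoxin, had 520.2, 533 and 728 against 311, 349 and 356 and was 1.73-fold lower (log2 fold change -0.79, standard error 0.14, adjusted p = 0.00293). The 2 lower genes held in every setting tried. *Prdx5*, found in mitochondria, peroxisomes and cytosol, went the other way, with 386, 379.6 and 386 against 661, 655 and 554. It rose 1.62-fold (log2 fold change 0.69, standard error 0.093, adjusted p = 0.000742). *Trmt112*, which overlaps *Prdx5* on the opposite strand and shares 29.7% of its 50-base words, was also higher (log2 fold change 0.59, adjusted p = 0.014). With the strand setting not given, reads of the pair cannot be told apart in the overlap.

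Of the other three, *Prdx1* and *Prdx2* are cytosolic and did not pass. *Prdx1* had 1665, 1556 and 2342 against 1853, 2147 and 1932. VEC-null 3 was above all VEC-positive libraries, while VEC-null 1 and 2 were below them. Its log2 fold change was 0.11 (interval -0.23 to 0.46, adjusted p = 0.583), and without VEC-null 3 it was 0.29 and passed. *Prdx2* had 568, 557 and 746 against 472, 529 and 471. These groups did not overlap, yet *Prdx2* missed the threshold (log2 fold change -0.33, interval -0.62 to -0.043, adjusted p = 0.071), while edgeR and DESeq2 on recovered reads and both forms of equal totals called it lower. It overlaps *Junb*, which was higher, and *Rnaseh2a*, which was lower, on the opposite strand. *Prdx3*, the mitochondrial member, had 147, 96.1 and 151 against 149, 153 and 157, where VEC-null 2 was the lowest library and VEC-null 3 lay within the VEC-positive values (log2 fold change 0.25, interval -0.18 to 0.68, adjusted p = 0.325).

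Of the superoxide dismutases, the mitochondrial enzyme was higher. *Sod2* (ENSMUSG00000006818, chr17:13006846-13040063, plus strand) had 196, 193 and 249 in VEC-null and 466.5, 495 and 439.8 in VEC-positive. The groups were widely separated, and *Sod2* rose 2.20-fold (log2 fold change 1.14, standard error 0.12, adjusted p = 0.00023), with a log2 fold change of 0.83 under equal totals. *Sod1*, the cytosolic enzyme, had 1501, 1551 and 1778 against 1877, 1822 and 1678. VEC-null 3 lay within the range of the VEC-positive libraries, and *Sod1* did not pass (log2 fold change 0.16, interval -0.046 to 0.36, adjusted p = 0.201). Without VEC-null 3 it was 0.23 and passed. *Sod3*, the secreted enzyme, was under the filter and rests on 4 reads in all VEC-null and 37 in all VEC-positive libraries, at 0, 3.15 and 0 against 9.33, 13.6 and 12.1 normalized counts. The ratio was 9.04 (95% interval 3.25 to 34.9), an interval that covers counting error only. *Cat*, catalase of the peroxisome, had 638, 755 and 1062 against 724, 635 and 616.5, with overlapping groups (log2 fold change -0.28, interval -0.69 to 0.12, adjusted p = 0.241). With equal totals *Cat* had a log2 fold change of -0.59 and passed as lower.

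Among the glutathione peroxidases both measured selenoenzymes were higher. *Gpx1*, the soluble enzyme that reduces hydrogen peroxide, had 107, 86.6 and 113.5 in VEC-null and 146, 177 and 198 in VEC-positive. *Gpx4*, which reduces lipid hydroperoxides in membranes, had 330.5, 349.7 and 433 against 499, 587 and 558. Neither gene had overlapping groups. *Gpx1* rose 1.69-fold (log2 fold change 0.75, standard error 0.17, adjusted p = 0.00868) and *Gpx4* rose 1.48-fold (log2 fold change 0.57, standard error 0.12, adjusted p = 0.00764). With equal totals neither passed (log2 fold changes 0.45 and 0.26), while with equal totals outside the mitochondrial genome both did (log2 fold changes 0.61 and 0.42). A processed copy, *Gpx4-ps2*, shares most of the 61.7% of 50-base words of *Gpx4* that occur elsewhere, so its count is uncertain in how reads were divided. *Gpx8*, with no selenocysteine codon, had 42.8, 52.0 and 74.5 against 60.65, 64.3 and 51.65. Its log2 fold change was 0.091 (interval -0.46 to 0.64, adjusted p = 0.789), and changes within that interval were not detectable here.

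The glutathione transferases, which conjugate glutathione to electrophiles, held the largest fold change of the 31 tested genes. *Gstm2* (ENSMUSG00000040562, chr3:107981702-107986453, minus strand) had 29.1, 25.99 and 28.4 in VEC-null and 104, 142 and 149 in VEC-positive. The highest VEC-null library was far below the lowest VEC-positive library, a rise of 4.56-fold (log2 fold change 2.19, standard error 0.20, adjusted p = 9.4e-05). *Gstm1* (ENSMUSG00000058135, chr3:108012255-108017973, minus strand), also on chromosome 3, had 44.4, 48.0 and 68.3 against 96.8, 125 and 120.2 and rose 2.13-fold (log2 fold change 1.09, standard error 0.21, adjusted p = 0.00448). *Gstp1* (ENSMUSG00000060803, chr19:4035407-4037985, minus strand), of the pi class, had 164, 147 and 217 against 348, 365 and 387 and rose 2.103-fold (log2 fold change 1.07, standard error 0.15, adjusted p = 0.000932). All 3 calls held in every setting tried. These are multigene families whose reads can be shared. The coding sequences of *Gstp1* and *Gstp2*, 633 bases each, differ at 12 bases (98.1% identical), and *Gstp2* rose as well, with 96.4, 92.9 and 83.3 against 159.8, 159.8 and 186 (log2 fold change 0.88, adjusted p = 0.00137). *Gstm1* shares 23.15% and *Gstm2* 9.36% of 50-base words with other genes.

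The remaining transferases did not pass or were under the filter. *Gsto1*, of the omega class, had 271, 331.5 and 493 against 268, 288 and 289.7, and VEC-null 3 was the highest library by a wide margin (log2 fold change -0.33, interval -0.78 to 0.13, adjusted p = 0.236). With equal totals it passed as lower (log2 fold change -0.64, adjusted p = 0.0269). *Mgst1*, a membrane-bound transferase, had 107, 106 and 186 against 93.3, 78.9 and 83.1. Its groups did not overlap, but it missed the threshold (log2 fold change -0.59, interval -1.12 to -0.06, adjusted p = 0.0786) and passed as lower with both forms of equal totals (log2 fold changes -0.90 and -0.74). The other two were under the filter. *Gsta4*, which handles the lipid peroxidation product hydroxynonenal, had 27 reads in all VEC-null and 2 in all VEC-positive libraries, a ratio of 0.0724 (95% interval 0.00834 to 0.288). *Gstt1*, of the theta class, had 23 VEC-null reads spread over all 3 libraries (4.59, 5.51 and 11.5 normalized counts) and 0 reads in VEC-positive. Set against a floor of 3 reads over the group, *Gstt1* was at least 7.85-fold lower. Without a filter, limma called *Gsta4* and *Gstt1* lower and *Sod3* higher.

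Ferritin stores iron that would otherwise react with hydrogen peroxide. *Fth1*, the heavy chain with ferroxidase activity, had 1656, 1712 and 1916 in VEC-null and 2711, 3224 and 3070 in VEC-positive, with a clear gap between the groups, and rose 1.70-fold (log2 fold change 0.77, standard error 0.093, adjusted p = 0.000432). *Ftl1*, the light chain, had 1812, 1977 and 2038 against 2210, 2313 and 2163. These did not overlap but missed the threshold (log2 fold change 0.20, interval 0.028 to 0.37, adjusted p = 0.0682), while without VEC-null 3 *Ftl1* passed (log2 fold change 0.24). *Ftl1* shares 90.6% of its 50-base words with copies elsewhere, and the count given to the copy *Ftl1-ps1* was higher (737.5, 851 and 911 against 1203, 1225 and 1118, adjusted p = 0.00398), so the light chain's own level is uncertain.

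**Figure D3:**
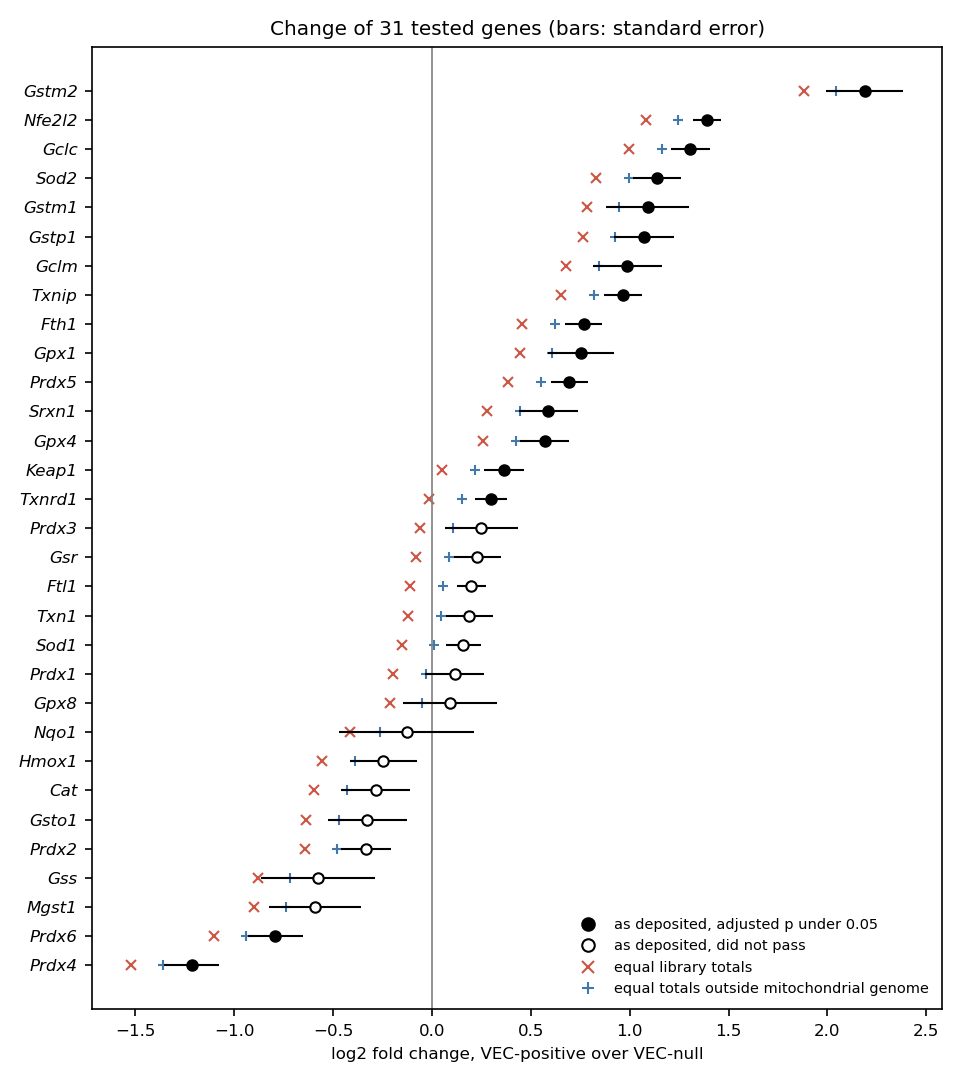
Log2 fold change (x axis, positive where VEC-positive is higher) for the 31 tested genes, sorted. Points are the deposited scaling with bars of 1 standard error, filled where the adjusted p is under 0.05, crosses are equal library totals and plus signs equal totals outside the mitochondrial genome. *Gstm2* is at 2.19 and *Prdx4* at -1.22, and every cross lies to the left of its point.

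Per kilobase of exon, the order of levels was led by *Txnip*, *Ftl1*, *Fth1*, *Prdx1* and *Nfe2l2* over all 6 libraries. In VEC-null *Ftl1* was ahead (1450 normalized counts per kilobase, against 1254 for *Txnip*) and in VEC-positive *Txnip* was ahead (2437 against 1663). *Nfe2l2* went from 305 to 801 and *Fth1* from 508 to 865 normalized counts per kilobase. At the low end of the tested genes, *Gss* had 9.63 and 6.44 and *Nqo1* 7.47 and 6.91. Exon lengths were taken over all annotated exons of a gene, so these levels are approximate.

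The wider pathway was read in 9 lists of other genes, chosen by textbook role with earlier results of these data known. The shares to set beside each list are those over all tested genes, 20.9% higher and 16.4% lower. Of other known partners, regulators and targets of NRF2, 16 of 26 tested rose, 2 fell and 8 missed the threshold, with a median log2 fold change of 0.62. The list mixes regulators of both directions with targets, and the repressors *Bach1* (log2 fold change 0.48) and *Bach2* are among the 16. The 8 were *Cul3*, *Btrc*, *Hmox2*, *Abcc1*, *Cbr1*, *Akr1b8*, *Akr1b10* and *Ugdh*, with log2 fold changes from -0.37 (*Btrc*) to 0.11 (*Abcc1*). The largest changes with a mean of at least 50 were in *Ephx1*, an epoxide hydrolase (normalized counts 135, 139 and 179 against 385, 401 and 403, log2 fold change 1.40), *Slc48a1*, a heme transporter (log2 fold change 1.40), and *Bach2*, a repressor that competes at the same elements (normalized counts 56.6, 39.4 and 18.6 against 86.3, 89.6 and 78.3, log2 fold change 1.26). *Bach1* and *Bach2* lost their calls with equal totals. Log2 fold changes were 0.59 for *Mafg* and 0.68 for *Mafk*, partners of NRF2, 0.87 for its relative *Nfe2l1* and 0.65 for the KEAP1-binding autophagy receptor *Sqstm1*, all higher, and -1.10 for *Nqo2*, which was lower. These 5 genes, like others named from here on without such a rank, were picked once their values were known. *Aldh3a1*, an aldehyde dehydrogenase, was at 0 reads in all VEC-null libraries together and at 83 in VEC-positive, at least 27.0-fold higher. It passed the filter through VEC-positive alone, and without it 15 of 25 rose. With equal totals the list had 12 higher and 5 lower.

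NADPH is the reductant behind both glutathione and thioredoxin reductase. The list read here holds genes of its supply and of linked pathways. Of its 18 tested genes, 0 were higher by limma (20.9% of all tested genes), 7 were lower (16.4% of all) and 11 did not pass. Their median was -0.44. With an unadjusted p under 0.05, 1 was higher and 8 were lower, and edgeR and DESeq2 gave 0 higher and 7 lower. *Mthfd1l* (log2 fold change -0.97) belongs to mitochondrial folate metabolism and does not itself form NADPH. *Me2* (normalized counts 474, 435 and 481 against 266, 253 and 268, log2 fold change -0.82) is a mitochondrial malic enzyme. *Nnt* (log2 fold change -0.69) is the transhydrogenase of the inner mitochondrial membrane. *G6pdx* and *Pgd*, the NADPH-forming enzymes of the pentose phosphate pathway, did not pass (log2 fold changes -0.16 and -0.0051). *Aldh1l1* passed the filter through VEC-null alone, and without it 6 of 17 were lower. With equal totals 12 of the 18 were lower, as were 4960 of all 14032 tested genes.

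Further genes of the thioredoxin, glutaredoxin and methionine sulfoxide repair systems had 2 of 18 higher, 6 lower and 10 not passing (median 0.0092). Over all tested genes 20.9% were higher and 16.4% lower. *Sesn3*, a sestrin, was lower (normalized counts 344, 294 and 379 against 162, 155 and 161, log2 fold change -1.08), as was the mitochondrial reductase *Txnrd2* (log2 fold change -0.86), while *Txnrd3* was higher (log2 fold change 1.003). Glutathione supply and breakdown had 2 higher, 3 lower and 9 not passing of 14 (median -0.0084). *Glul*, glutamine synthetase, had 369, 376 and 377 against 1793, 1736 and 1829 (log2 fold change 2.25, adjusted p = 5.3e-07), and *Ahcy* was lower (log2 fold change -0.90). The cystine carrier subunits *Slc7a11* and *Slc3a2* did not pass (log2 fold changes -0.19 and 0.044). Of the related genes only transferases could be tested, since *Gpx3* was under the filter. Among the 5 that reached 10 normalized counts in both groups (*Gstp2*, *Gstcd*, *Gstm7*, *Gstz1* and *Mgst3*), *Gstp2* was higher, as given above, *Gstcd* was lower (log2 fold change -0.93) and 3 did not pass. *Gsta3* and *Gstm5* passed the filter through VEC-positive alone, so that their difference was fixed by the filter and they are given as values. *Gsta3* went from 4 to 249 reads, a ratio of 60.8 (95% interval 23.5 to 225), and *Gstm5* from 0 to 51, at least 16.6-fold higher.

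Of 13 tested iron genes, 4 rose, 3 fell and 6 did not pass (median 0.23). The shares over all tested genes, 20.9% higher and 16.4% lower, apply to this list and to those that follow. *Cp*, ceruloplasmin, a ferroxidase, had 21.4, 27.6 and 58.5 against 470.0, 450.0 and 474 (log2 fold change 3.79, adjusted p = 7.2e-05), and *Slc40a1*, ferroportin, the exporter, was higher (log2 fold change 1.06), as was *Ncoa4*, the receptor for ferritin breakdown (log2 fold change 0.68). *Tfrc*, the transferrin receptor, was lower (normalized counts 581, 603 and 954 against 457, 429 and 424.5, log2 fold change -0.67). The metallothioneins *Mt1* and *Mt2* were under the filter. Selenoproteins and factors of their synthesis had 2 higher, 2 lower and 12 not passing of 16 (median 0.020), with log2 fold changes of 1.03 for *Selenop*, -1.24 for *Selenoh* and -0.82 for the selenocysteine elongation factor *Eefsec*. The list of sources of superoxide and hydrogen peroxide had 2 higher, 4 lower and 3 not passing of 9 (median -0.31). This leaves out *Ncf1*, which passed the filter through VEC-positive alone. Log2 fold changes were -1.02 for *Pxdn*, peroxidasin, -0.73 for *Duox2* and -0.51 for *Qsox1*. *Pxdn* is among the 4 lower genes, but as a peroxidase it uses hydrogen peroxide and is no source of it. *Nox4*, the endothelial NADPH oxidase, was higher (normalized counts 265, 240.2 and 298 against 358, 349 and 328, log2 fold change 0.37), a call lost with either form of equal totals. Lipid peroxidation and ferroptosis had 3 higher, 1 lower and 8 not passing of 12 (median 0.022). *Por*, the reductase that serves cytochromes of the P450 family, had a log2 fold change of 1.19. Those of *Gch1*, which acts in tetrahydrobiopterin synthesis, and *Aldh2* were 0.81 and 0.43. With equal totals the calls of *Gch1* and *Aldh2* were lost (log2 fold changes 0.50 and 0.11). All medians are on the deposited scale; equal totals lowers nearly every gene together, as the median of all tested genes at -0.32 shows.

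**Figure D4:**
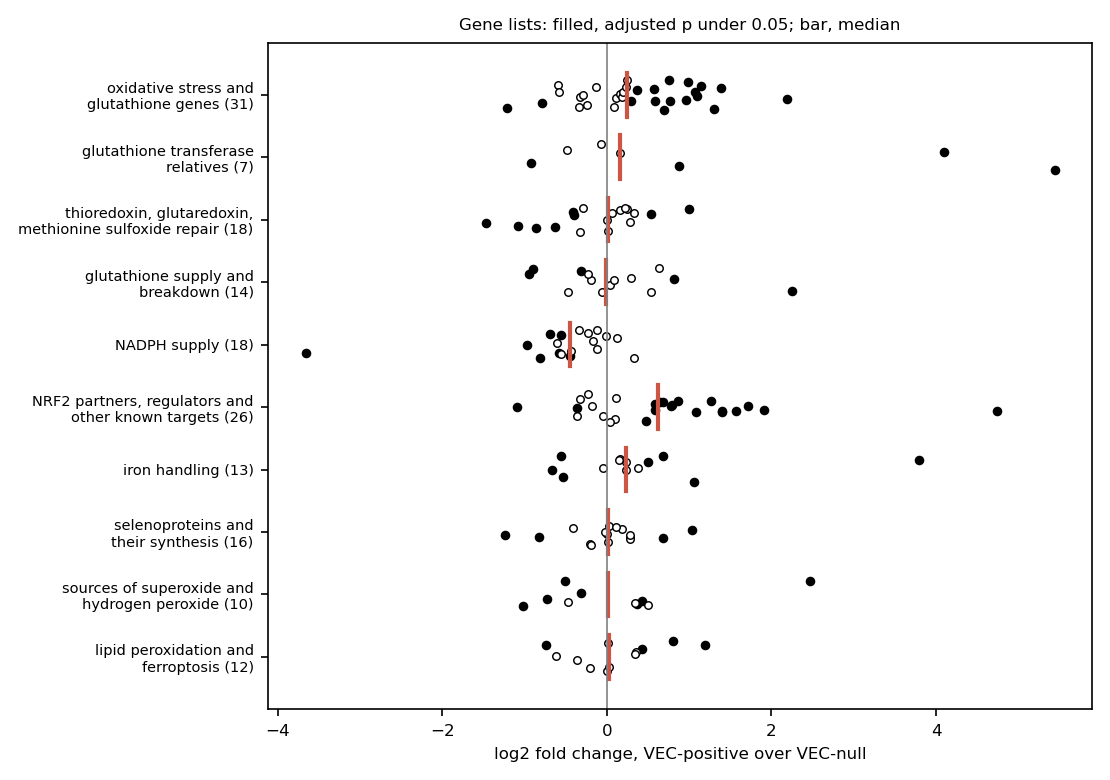
Log2 fold change (x axis, positive where VEC-positive is higher) of each tested gene in the 31 genes described and in the 9 lists of related genes, with the number tested in brackets. Filled points have an adjusted p under 0.05 and red bars are medians. The NRF2 partner list has its median at 0.62 and the NADPH list at -0.44, against 0.25 for the 31 genes. *Gsta3*, *Gstm5*, *Aldh3a1*, *Ncf1* and *Aldh1l1*, which passed the filter through 1 group alone, are included.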

How the data were processed

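Total RNA of the 2 cell types was sequenced from a stranded kit in 3 libraries each, grouped here by label. The processing notes name Trim Galore, TopHat2 2.1.1, DESeq2 1.14 and mm10. The counting program, its strand setting and its annotation are not stated in the sources used. The authors deposited signal values for 24080 genes, which are counts of reads per gene after division by a size factor for each library. Multiplying back gave whole reads (100% of values within 0.01 of a read), between 6036155 and 14136376 per library. Symbols of 23908 genes, coordinates, coding sequences and shared 50-base words came from GENCODE M21 (GRCm38), and promoters from RefSeq (GRCm38.p6).

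limma 3.58.1 (R 4.3.3) with its trend option compared the 14032 genes that reached 10 normalized counts in 3 or more libraries, on log2 values after adding 1, which understates changes of low genes; 10048 genes were below this filter. Tests were two-sided, and p-values were adjusted by Benjamini-Hochberg over these genes, with 0.05 as the threshold. The genes and lists described were chosen with earlier results of these data known. Every gene of the set was described. From each list the 3 largest changes (or fewer) among called members with a mean of 50 or more were named, and others were picked once their values were known. One gene of the first kind is not reported here. Ratios of few reads carry a 95% interval, and a group with 0 reads was set to a floor of 3 reads over the group. PCR duplicates count as reads, so both cover counting error only. The fits were also run on simulated counts with a single fixed spread. Such counts do not mimic these libraries, and no result here rests on them.

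The 16 alternatives were pseudocounts of 0.5 and 8, no filter, a filter of 50, equal totals with and without mitochondrial reads, TMM, a replicate block, recovered reads in edgeR 4.0.16 and in DESeq2 1.42.0, and dropping each library in turn. Figures were drawn with matplotlib 3.10.9. The other experiments of the study were not analysed here.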

Additional observations from a re-analysis of the deposited data

How the results depend on the processing

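Of the counts over the 31 tested genes, the 15 higher and 2 lower were the same with pseudocounts of 0.5 and 8, a filter of 50, TMM and without VEC-positive 3. With edgeR and DESeq2 on recovered reads *Prdx2* joined the lower genes (15 and 3). With no filter 16 were higher and 4 lower of 34. With equal totals 10 were higher and 8 lower, with a median log2 fold change of -0.059, and with equal totals outside the mitochondrial genome 12 and 4, with a median of 0.11. Over the 6 fits that leave out 1 library, 12 to 18 were higher and 2 lower, with medians of 0.21 to 0.35. Log2 fold changes that turned sign with equal totals were -0.080 for *Gsr*, -0.12 for *Txn1*, -0.013 for *Txnrd1*, -0.20 for *Prdx1*, -0.059 for *Prdx3*, -0.15 for *Sod1*, -0.21 for *Gpx8* and -0.11 for *Ftl1*; with equal totals outside the mitochondrial genome they were -0.032 for *Prdx1* and -0.052 for *Gpx8*. These scalings differ from the deposited one by construction, since they hold the library totals equal. On leaving out a library, *Gpx8* ranged from -0.085 to 0.31, *Prdx1* from -0.00060 to 0.29 and *Nqo1* from -0.30 to 0.044. The replicate block gave 13 higher and 2 lower, without *Keap1* and *Txnrd1*; correlations of same-numbered libraries were 0.076, -0.33 and -0.30 for replicates 1, 2 and 3, so the numbers did not pair the libraries. With 3 libraries a group and 33 to 35 reads a group, *Nqo1* is limited by depth, as are *Sod3*, *Gsta4* and *Gstt1*.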

Other observations

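The letters of the NRF2 element also occurred in promoters of genes in the related lists, in 25 of 187 promoters (13.4%), against 12.4% of all promoters of the same length. Of the small MAF genes, *Maff*, *Mafg* and *Mafk* each held the core TGACNNNGC, and each was higher in VEC-positive. *Maff* was at 12.2, 22.1 and 7.09 normalized counts in VEC-null 1, 2 and 3 against 42.0, 40.9 and 34.7 for VEC-positive (log2 fold change 1.57, adjusted p = 0.0153 from limma). *Abcc4*, *Ncoa4*, *Selenok* and *Ggct* held the core and were higher, with log2 fold changes of 0.59, 0.68, 0.69 and 0.81. With equal totals the calls of *Abcc4*, *Selenok* and *Ggct* were lost. *Gsta3* and *Gstm5*, which passed the filter on low values through VEC-positive alone, held it too. *Msrb2*, a mitochondrial methionine sulfoxide reductase, and *Blvra*, biliverdin reductase, held it and were lower, with log2 fold changes of -1.47 and -0.36. The other 8 tested genes with the core did not pass, with log2 fold changes of -0.13 for *Me1*, -0.16 for *G6pdx*, -0.23 for *Ugdh*, 0.069 for *Sesn2*, -0.071 for *Gstm7*, 0.64 for *Hagh*, -0.0051 for *Pgd* and 0.15 for *Hfe*. *Ggt1*, *Abcc2* and *Mt2* held it and were under the filter. A match describes letters only. The MAF genes come from the list in which 16 of 26 tested genes were higher, and over all tested genes 20.9% were higher and 16.4% lower.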
